A study of Mus musculus with 60 samples.

Results

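Transcript levels of 9 genes of the neuromuscular junction and of the muscle response to denervation were followed in mouse skeletal muscle and then in skin, lung, spleen, kidney and liver. The genes were listed by symbol and matched to the Ensembl identifiers of the count table, which holds 52636 genes. All 9 were found: Chrna1, Chrnb1, Chrnd, Chrng and Chrne, which encode the subunits of the muscle acetylcholine receptor, Musk, Myog, Runx1 and Ncam1.

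At the neuromuscular junction, acetylcholine released by the motor nerve opens a receptor made of alpha, beta, delta and either gamma or epsilon subunits. The gamma subunit belongs to fetal muscle and returns along the fibre when the nerve is lost, whereas the epsilon subunit belongs to the adult synapse. MuSK is the receptor kinase that, bound to Lrp4 and activated by nerve-derived agrin, gathers receptors under the nerve ending. Myogenin is a myogenic transcription factor that binds E-boxes, Runx1 is a transcription factor and Ncam1 is a cell adhesion molecule, and in adult rodent muscle all of these are known to rise after denervation.

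Total RNA was sequenced from 6 tissues with 10 libraries each, in 3 groups. All mice, controls included, were heterozygous for a 4F cassette (Oct4, Sox2, Klf4 and c-Myc) and for R26::rtTA on C57BL/6, so that doxycycline induces the 4 reprogramming factors through rtTA made from the broadly active Rosa26 locus. The young group (3 months, 4 libraries a tissue, 2 male and 2 female) and the untreated old group (26 months, 3 libraries, 2 male and 1 female) received no doxycycline. The 4F-induced old group (26 months, 3 libraries, 2 male and 1 female) drank doxycycline at 1 mg/ml for 2 days followed by 5 days without it, each week for 1 month from 25 months of age. No group received the drug without the cassette, so drug and factors cannot be told apart, and the labels do not say which muscle was taken or whether it was injured or denervated. The labels also do not say which libraries share a mouse, so p-values measure only the spread between libraries. Their sample numbers fall into 10 consecutive runs of 6, each with 1 library per tissue and of 1 group and 1 sex, and whether a run is 1 mouse is not stated. No treatment of the nerve is labelled in any group, and the genes are called denervation genes here only for what is known of them.

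Muscle libraries held between 25476882 and 39876935 counts, and libraries of all tissues between 16699694 and 50698836 counts. The summed level of 13 fast fibre genes in muscle was between 139000 and 207000 CPM (counts per 1000000 counts of the library), against at most 236 CPM in any library of lung, spleen, kidney or liver. Young muscle libraries 1 and 2 also held kidney tubule transcripts, at 82.0 and 50 CPM summed over 10 genes against at most 1.69 CPM in the other 8. Hepatocyte transcripts summed over 10 genes to 67.2, 143, 296 and 112 CPM in the young muscle libraries, 6.26, 2.16 and 5.53 CPM in the untreated old ones and 1.75, 1.64 and 25.3 CPM in the 4F-induced old ones. All 4 young libraries lay above all 6 old ones. Young muscle library 3 held the most adipocyte transcripts, 7680 CPM against 452 to 2220 CPM elsewhere. Among the cassette factors in muscle, Pou5f1 (which encodes Oct4) was at 0 in the untreated old libraries, between 0.0322 and 0.119 CPM in the young ones and at no more than 0.255 CPM in the 4F-induced ones. Sox2 was at 0 in the untreated old libraries, between 0.0597 and 0.181 CPM in the young ones and between 0.0502 and 0.287 CPM in the 4F-induced ones.

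The sequences before the starts of 5 of the genes are shown because the receptor genes are known targets of myogenic factors, and because the first 3 below moved in the same direction in the comparison of 4F-induced old with young muscle while Chrne did not pass. Each line gives the 250 bases before the RefSeq start in GRCm38.p6, written 5′ to 3′ on the strand of the gene, and capitals mark every E-box of the form CANNTG. The Chrng window lies inside the GENCODE M21 range of that gene, which starts at chr1:87204657.
Chrna1 (chr2:73580339-73580588, minus strand): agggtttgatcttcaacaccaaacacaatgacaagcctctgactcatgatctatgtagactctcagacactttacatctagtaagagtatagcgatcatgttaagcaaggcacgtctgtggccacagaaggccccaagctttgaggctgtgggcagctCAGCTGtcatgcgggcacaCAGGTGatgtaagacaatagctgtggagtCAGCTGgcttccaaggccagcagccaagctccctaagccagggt
Chrnb1 (chr11:69795938-69796187, minus strand): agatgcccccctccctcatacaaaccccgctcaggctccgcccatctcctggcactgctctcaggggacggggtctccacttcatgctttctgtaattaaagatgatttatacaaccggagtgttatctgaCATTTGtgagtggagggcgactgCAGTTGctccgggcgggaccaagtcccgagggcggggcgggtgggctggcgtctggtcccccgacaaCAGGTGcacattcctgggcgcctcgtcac
Chrng (chr1:87205561-87205810, plus strand): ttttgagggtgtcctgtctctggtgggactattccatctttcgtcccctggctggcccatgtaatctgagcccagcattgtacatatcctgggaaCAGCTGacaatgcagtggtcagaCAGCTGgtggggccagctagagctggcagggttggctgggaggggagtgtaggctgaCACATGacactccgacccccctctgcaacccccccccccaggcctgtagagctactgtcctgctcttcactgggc
Chrne (chr11:70619195-70619444, minus strand): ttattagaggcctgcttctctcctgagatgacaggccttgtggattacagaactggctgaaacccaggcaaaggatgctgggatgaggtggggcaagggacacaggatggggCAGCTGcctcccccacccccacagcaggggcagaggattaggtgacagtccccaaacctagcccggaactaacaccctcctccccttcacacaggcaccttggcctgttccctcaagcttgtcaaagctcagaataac
Myog (chr1:134289754-134290003, plus strand): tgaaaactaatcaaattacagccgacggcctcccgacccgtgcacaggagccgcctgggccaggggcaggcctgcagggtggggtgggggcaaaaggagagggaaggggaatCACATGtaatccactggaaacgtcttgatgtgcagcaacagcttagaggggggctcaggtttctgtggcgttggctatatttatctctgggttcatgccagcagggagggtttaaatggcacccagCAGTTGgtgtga
E-boxes were searched on both strands, and CANNTG reads the same way on each. The windows of Chrna1, Chrnb1, Chrng, Musk and the upstream Runx1 start held 3 each, Myog held 2, Chrne held 1 and the downstream Runx1 start held 0. Musk and Runx1 did not pass from young to 4F-induced old muscle, and a link of E-boxes to the levels was not tested. Of 32851 RefSeq windows of this length, 66.2% held at least 1 and 12.2% held 3 or more. The form CAGCTG, which is contained in CANNTG, was found at 2 places in Chrna1 and in Chrng and at 1 place in Chrne and in Musk, and 13% of all windows held it. The N-box CCGGAA, searched on both strands and known as a binding site of Ets factors in synaptic genes, was found once in Chrne, 76 bases before the start, and once at the downstream Runx1 start. It was in 12% of all windows. TGTGGT, a form of the Runx site, was in none of these windows and in 14.0% of all. The other genes of the 9 are named only, as 7 had a sequence in the table used.

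Per kilobase of annotated exon, the beta and epsilon subunits were the most abundant of the 9 transcripts in young muscle. Chrnb1 averaged 13.3 ± 2.16 CPM of the library total per kb (SD, n = 4) and Chrne 12.7 ± 0.977, and their ranges overlapped. Chrna1 (4.70 ± 1.1), Myog (4.61 ± 2.26) and Musk (3.86 ± 1.84) followed with overlapping ranges. Below them lay Chrnd at 1.63 ± 0.418, Ncam1 at 0.938 ± 0.174 and Runx1 at 0.303 ± 0.102 CPM per kb. Chrnd and Ncam1 overlapped, and Runx1 did not overlap Ncam1. Chrng, the fetal subunit, was the lowest at 0.104 ± 0.0192 CPM per kb, below the lowest Runx1 library. All levels in muscle that follow are CPM after TMM (trimmed mean of M values) scaling, without division by length.

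**Figure D1:**
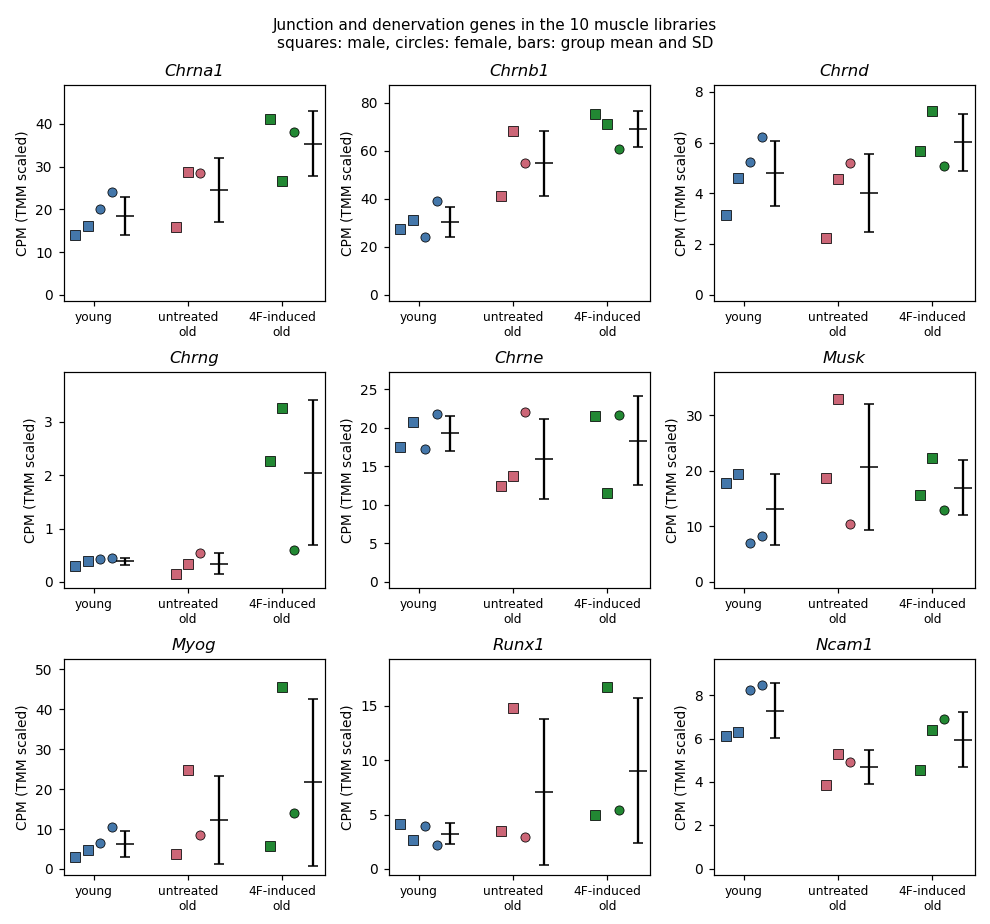
Level of each of the 9 genes in the 10 muscle libraries, in CPM after TMM scaling, with each group's mean and SD (n = 4, 3 and 3), squares for male and circles for female mice. The untreated old and 4F-induced old libraries of Chrnb1 lie between 41.0 and 75.3 CPM, above the 4 young libraries, and Myog and Runx1 are highest in library 2 of both old groups.

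Chrnb1 (ENSMUSG00000041189, chr11:69784036-69795943, minus strand, GRCm38), the beta subunit, was higher in old muscle. The young libraries held 27.5, 31.1, 24.1 and 38.9 CPM, the untreated old libraries 41.0, 68.1 and 54.8 CPM and the 4F-induced old libraries 75.3, 71.0 and 60.5 CPM. No old library of either group reached down to the young range, while the old groups overlapped each other. In edgeR's quasi-likelihood test with Benjamini-Hochberg adjustment over 16851 genes, the log2 fold change from young to untreated old was 0.84 ± 0.20 (SE), with an adjusted p of 0.0273. From young to 4F-induced old it was 1.17 ± 0.20, with an adjusted p of 0.011. The call between young and untreated old was lost (edgeR adjusted p 0.0628 to 0.141) without any of young 1, young 2, untreated old 2 or untreated old 3, and without young 1 and 2 together, where the log2 fold change was 0.72 with an adjusted p of 0.189. The call against 4F-induced old was lost without 4F-induced old 3 (1.30, adjusted p 0.0566) and without young 1 and 2 together (1.04, adjusted p 0.0737).

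Chrna1 (ENSMUSG00000027107, chr2:73563215-73580338, minus strand), the alpha subunit that carries the acetylcholine site, was highest in the 4F-induced group. Its young libraries held 13.9, 16.0, 20.1 and 24 CPM, the untreated old libraries 15.9, 28.8 and 28.6 CPM and the 4F-induced libraries 41.2, 26.6 and 38.2 CPM. The young and 4F-induced groups did not overlap on this scale, and the untreated old group overlapped both. In CPM of the library total, without TMM scaling, young 4 (25.4 CPM) lay above 4F-induced old 2 (24.1 CPM), so that these groups overlapped. The log2 fold change from young to 4F-induced old was 1.02 ± 0.22 (edgeR adjusted p 0.0174). From young to untreated old it was 0.48 ± 0.22 (adjusted p 0.155, and 0.68 with an adjusted p of 0.0376 without untreated old 1), and from untreated to 4F-induced old 0.54 ± 0.23 (adjusted p 0.768). The first of these calls was lost without 4F-induced old 1 (0.81, edgeR adjusted p 0.0549), without 4F-induced old 3 (1.14, adjusted p 0.0712) and without young 1 and 2 together (0.87, adjusted p 0.121).

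Chrng (ENSMUSG00000026253, chr1:87204657-87212694, plus strand), the fetal gamma subunit, was low in 8 of the 10 muscle libraries and high in 2. It had 11, 14, 16 and 17 reads in the young libraries, 4, 8 and 13 in the untreated old libraries and 66, 83 and 22 in the 4F-induced old libraries. In scaled units the 4F-induced libraries were at 2.27, 3.27 and 0.592 CPM, the young libraries between 0.292 and 0.444 CPM and the untreated old ones between 0.144 and 0.549 CPM. All 3 induced libraries lay above all 7 others, the third by little. The log2 fold change from untreated to 4F-induced old was 2.51 ± 0.66, with an unadjusted p of 0.00378 and an adjusted p of 0.628 in edgeR. DESeq2 called it in that comparison (2.56 ± 0.68, adjusted p 0.0417), as did edgeR without a filter on low counts (2.52 ± 0.53, adjusted p 0.0385). From young to 4F-induced old the log2 fold change was 2.28 ± 0.59 (edgeR adjusted p 0.0297). That call was lost without any of 4F-induced old 1, 4F-induced old 2, young 1 or young 2 (edgeR adjusted p 0.0759 to 0.0873), and without young 1 and 2 together, where the log2 fold change was 1.59 with an adjusted p of 0.276.

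Chrne (ENSMUSG00000014609, chr11:70614883-70619216, minus strand), the adult epsilon subunit, passed in no comparison of muscle. The young libraries held 17.5, 20.8, 17.2 and 21.8 CPM, the untreated old libraries 12.5, 13.7 and 22.0 CPM and the 4F-induced libraries 21.6, 11.6 and 21.7 CPM. The 3 groups overlapped, with library 2 of both old groups and untreated old 1 at the low end. In CPM of the library total, the untreated old libraries (12.8 to 18.6 CPM) lay below the young ones (19.7 to 23.1 CPM). The log2 fold changes ran from -0.25 to 0.21 (edgeR adjusted p 0.459 to 0.922). Set against Chrne within each library, Chrng gave 1.67, 1.86, 2.51 and 2.04 reads per 100 Chrne reads in young muscle and 1.15, 2.46 and 2.50 in untreated old muscle. In 4F-induced old muscle it gave 10.5, 28.1 and 2.73. This ratio is not corrected for transcript length and was not tested.

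Chrnd (ENSMUSG00000026251, chr1:87190607-87200070, plus strand), the delta subunit, lies next to Chrng on the chromosome. It was at 3.16, 4.59, 5.24 and 6.21 CPM in young, 2.26, 4.58 and 5.2 CPM in untreated old and 5.67, 7.26 and 5.08 CPM in 4F-induced old muscle. The young and the 4F-induced libraries overlapped, as did the young and the untreated old ones. Its log2 fold change was -0.21 ± 0.29 with age (edgeR adjusted p 0.649) and 0.62 ± 0.31 between the old groups (adjusted p 0.813).

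Musk (ENSMUSG00000057280, chr4:58285960-58374303, plus strand), the receptor kinase of the agrin pathway, separated the muscle libraries by sex. Young libraries 1 and 2, from males, held 17.8 and 19.4 CPM, and young libraries 3 and 4, from females, 6.96 and 8.35 CPM. The untreated old males held 18.7 and 33 CPM and the female 10.4 CPM. The 4F-induced males held 15.6 and 22.4 CPM and the female 12.9 CPM. All 6 male libraries lay above all 4 female libraries. In the same edgeR model, the log2 difference of female minus male was -1.07 ± 0.21, with an unadjusted p of 0.000459 and an adjusted p of 0.0822, so that it did not pass, while 0.303% of all genes did. DESeq2 called it (-1.08 ± 0.22, adjusted p 0.000169, with 2.14% of genes called), as did edgeR without a filter on low counts (adjusted p 0.00102, with 1.25% of genes called). The sex comparison was added after these values had been seen. Young male libraries are also the 2 with kidney transcripts, and without them the log2 difference was -0.92 ± 0.30 (edgeR adjusted p 0.404). Between the groups the log2 fold change of Musk was 0.50 ± 0.23 with age (edgeR adjusted p 0.165) and -0.18 ± 0.25 between the old groups (adjusted p 0.941).

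Myog (ENSMUSG00000026459, chr1:134289989-134292548, plus strand) and Runx1 (ENSMUSG00000022952, chr16:92601466-92826149, minus strand), the 2 transcription factors, were high in the same 2 muscle libraries. Myog was at 3.03, 4.84, 6.4 and 10.6 CPM in young, 3.66, 24.7 and 8.45 CPM in untreated old and 5.74, 45.5 and 13.9 CPM in 4F-induced old muscle. Runx1 was at 4.17, 2.63, 3.94 and 2.19 CPM in young, 3.52, 14.8 and 2.91 CPM in untreated old and 4.99, 16.7 and 5.43 CPM in 4F-induced old muscle. Library 2 of each old group was the highest for both genes. The log2 fold changes with age were 0.99 ± 0.83 for Myog (edgeR adjusted p 0.434) and 0.85 ± 0.59 for Runx1 (adjusted p 0.335). Without untreated old 2 and 4F-induced old 2 they were -0.05 and -0.01, an alternative chosen after the data were seen. Of these, 4F-induced old 2 held the most Chrng and the fewest fast fibre transcripts, 139000 CPM against 161000 to 207000 CPM in the others.

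Ncam1 (ENSMUSG00000039542, chr9:49502136-49798925, minus strand) was lower in untreated old muscle. The young libraries held 6.12, 6.28, 8.23 and 8.48 CPM, the untreated old libraries 3.84, 5.30 and 4.94 CPM and the 4F-induced libraries 4.54, 6.39 and 6.91 CPM. Every untreated old library lay below every young one, and the 4F-induced group overlapped both. In CPM of the library total, the 4F-induced libraries (4.21 to 6.44 CPM) also lay below the young ones (6.85 to 9.81 CPM). The log2 fold change with age was -0.56 ± 0.17, which did not pass at an edgeR adjusted p of 0.0521. DESeq2 gave -0.55 ± 0.20 with an adjusted p of 0.0312. It was 0.33 ± 0.18 between the old groups (edgeR adjusted p 0.83). In the authors' counts, reads of Ncam1 and Runx1 cannot be told apart from those of the antisense genes Gm11149 and Gm26626, whose exons overlap theirs, because the strand setting of the counting is not given in the sources used here. Those antisense genes had median counts of 1 and 0.5 in muscle. Schwann cell markers, which mark the glia that ensheathe the nerve and where Ncam1 is also known to be made, summed over 12 genes to between 155 and 310 CPM in young and between 111 and 154 CPM in untreated old muscle. They summed to between 93.6 and 231 CPM in 4F-induced old muscle. None of the 12 passed with age, between the old groups or from young to 4F-induced old. Over all genes 16.1%, 0.00593% and 19.0% passed in these comparisons. The part of Schwann cells in the Ncam1 difference was not tested. In bulk RNA, fewer cells of a type and less RNA per cell cannot be told apart.

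Over the 9 genes, 1 of 9 passed with age (Chrnb1, higher), where 16.1% of the 16851 genes tested passed and 8.14% were higher. DESeq2 called 2 of 9 with age, Chrnb1 higher and Ncam1 lower, with 20.5% of its genes called. Without untreated old 1, edgeR called a different 2 of 9 with age, Chrnb1 (1.02, adjusted p 0.00816) and Chrna1 (0.68, adjusted p 0.0376), both higher, where 3968 genes passed. Between the old groups 0 of 9 passed with edgeR, where 0.00593% of genes did (1 gene). At an unadjusted p under 0.05, 1071 genes were found in that comparison, Chrna1 and Chrng among them. There DESeq2 called 1 of the 9 (Chrng), with 0.391% of its genes called, and edgeR without the filter also called 1 (Chrng), with 0.188%. From young to 4F-induced old, 3 of 9 passed (Chrna1, Chrnb1 and Chrng, all higher), where 19.0% of genes passed and 9.74% were higher. The median log2 fold change of the 9 was 0.48 with age, 0.41 between the old groups and 1.02 from young to 4F-induced old, beside -0.015, -0.012 and -0.058 over all genes. All 9 passed the filter on low counts in muscle. The 3 comparisons share libraries, so their values are not independent of one another.

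**Figure D2:**
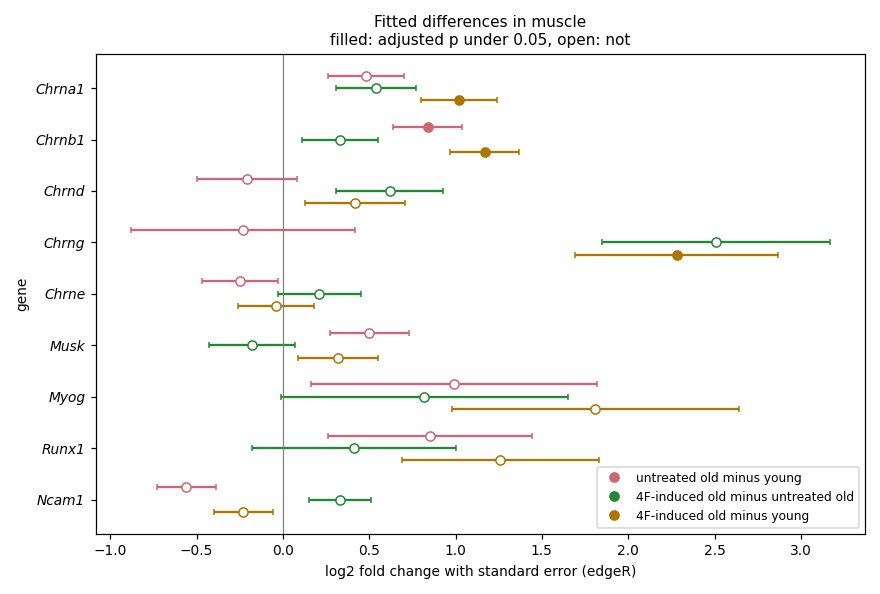
Log2 fold change of each gene in muscle with its standard error, for the 3 comparisons, from the edgeR fit over 10 libraries. Filled points passed at an adjusted p under 0.05: Chrnb1 with age (0.84), and Chrna1 (1.02), Chrnb1 (1.17) and Chrng (2.28) from young to 4F-induced old.

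Other genes of the junction were mostly lower in old muscle where they passed. Of 22 tested partners, 1 rose with age and 6 fell, and 15 did not pass, with a median log2 fold change of -0.30 beside -0.015 over all genes, of which 16.1% passed and 8.14% were higher. Dok7, the cytoplasmic activator of MuSK, rose from 21.4 ± 3.63 CPM (SD, n = 4) to 35.2 ± 8.26 CPM (n = 3), a log2 fold change of 0.72 ± 0.19 (edgeR adjusted p 0.0363). Lrp4, the agrin receptor, fell from 18.0 ± 1.55 to 13 ± 0.512 CPM (log2 -0.44 ± 0.11, adjusted p 0.0266). Ache, the esterase that clears acetylcholine, and Colq, the collagen tail that anchors it in the cleft, fell by 0.60 ± 0.15 and 0.76 ± 0.20 on the log2 scale (edgeR adjusted p 0.0304 and 0.0329). Scn4a, the sodium channel of adult muscle, and Etv5, an Ets factor of synaptic gene transcription, fell by 0.68 ± 0.13 and 0.76 ± 0.15 (adjusted p 0.0151 and 0.0145). Erbb4, a neuregulin receptor, fell by 2.08 ± 0.59 (edgeR adjusted p 0.0418) from a level of 1.20 ± 0.312 CPM. Agrn, which encodes agrin, and Rapsn, which encodes the scaffold that clusters the receptor, did not pass (log2 0.04 ± 0.33 and 0.15 ± 0.13, edgeR adjusted p 0.945 and 0.421).

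Lrp4 had the clearest separation between the old groups among these partners. It was at 13, 12.5 and 13.6 CPM in the untreated old libraries, at 16.0, 19.0 and 19.8 CPM in the 4F-induced libraries and between 16.9 and 20.3 CPM in the young ones. The old groups did not overlap, while the 4F-induced and young groups did. The log2 difference between the old groups was 0.49 ± 0.11, with an unadjusted p of 0.00154 and an edgeR adjusted p of 0.577, so that it did not pass. None of the 22 partners passed between the old groups, where 0.00593% of all genes did. From young to 4F-induced old 0 rose and 3 fell, where 19.0% of all genes passed and 9.74% were higher. The 3 were Etv5, Scn4a and Ache, by 0.95, 0.75 and 0.65 on the log2 scale (edgeR adjusted p 0.00958, 0.0115 and 0.0219).

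Of 20 other genes known to respond to denervation, 8 rose with age, 0 fell and 12 did not pass, with a median log2 fold change of 0.82. Over all genes the same 16.1% passed and 8.14% were higher. This list and that of the junction partners were chosen with earlier results of these data known, so their counts are descriptions and not a test. The 8 include Dach2, taken up below, so rises are counted whatever the direction known after denervation. Sln, which encodes the calcium pump inhibitor sarcolipin, rose from 1.27 ± 0.266 CPM in young to 12.5 ± 6.65 CPM in untreated old muscle (log2 3.34 ± 0.39, edgeR adjusted p 0.00454). Ankrd1, a stretch-responsive ankyrin repeat protein, rose by 3.71 ± 0.62 on the log2 scale, and Tnfrsf12a, the receptor of the cytokine TWEAK, by 2.84 ± 0.53 (adjusted p 0.0104 and 0.0133). Rrad, a small GTPase that inhibits calcium channels, rose by 3.44 ± 0.86 (edgeR adjusted p 0.03). Kcnn3, a calcium-activated potassium channel of denervated muscle, rose by 0.83 ± 0.24 (adjusted p 0.0427).

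Dach2, a corepressor of Myog that is known to fall after denervation in mice, also rose with age. It was at 1.57, 5.83, 1.24 and 2.48 CPM in young, 6.64, 14.7 and 17.4 CPM in untreated old and 9.11, 16.5 and 11.1 CPM in 4F-induced old muscle. All 6 old libraries lay above all 4 young ones. The log2 fold change with age was 2.23 ± 0.52 (edgeR adjusted p 0.0243). Hdac4, the deacetylase that represses Dach2 in denervated mouse muscle, did not pass (0.03 ± 0.21, edgeR adjusted p 0.923). Myod1, a myogenic factor, and Gadd45a, a stress gene induced by denervation, did not pass (0.01 ± 0.31 and 1.24 ± 0.56, edgeR adjusted p 0.984 and 0.151).

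None of the 20 passed between the old groups, with a median of -0.11 there, where 0.00593% of all genes passed. From young to 4F-induced old 7 rose and 0 fell, where 19.0% of all genes passed and 9.74% were higher. The 7 were Sln, Ankrd1, Kcnn3, Dach2, Rrad, Tnfrsf12a and Myh3. Myh3, the embryonic myosin heavy chain, rose by 1.05 ± 0.32 (edgeR adjusted p 0.0471), with 26.3 CPM in 4F-induced old 3 against 3.70 to 8.07 CPM in the other 9 libraries. Without 1 library at a time, the calls of these 2 lists moved on and off: with age, Sln alone of the 15 called genes passed in each of the 7 fits, and Dok7, Rrad, Lrp4, Ache, Colq, Erbb4 and Kcnn3 each passed in 1 or 2 of them. The number of all genes that passed with age was 62 without untreated old 3 and 3968 without untreated old 1, beside 2705 with all libraries.

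**Figure D3:**
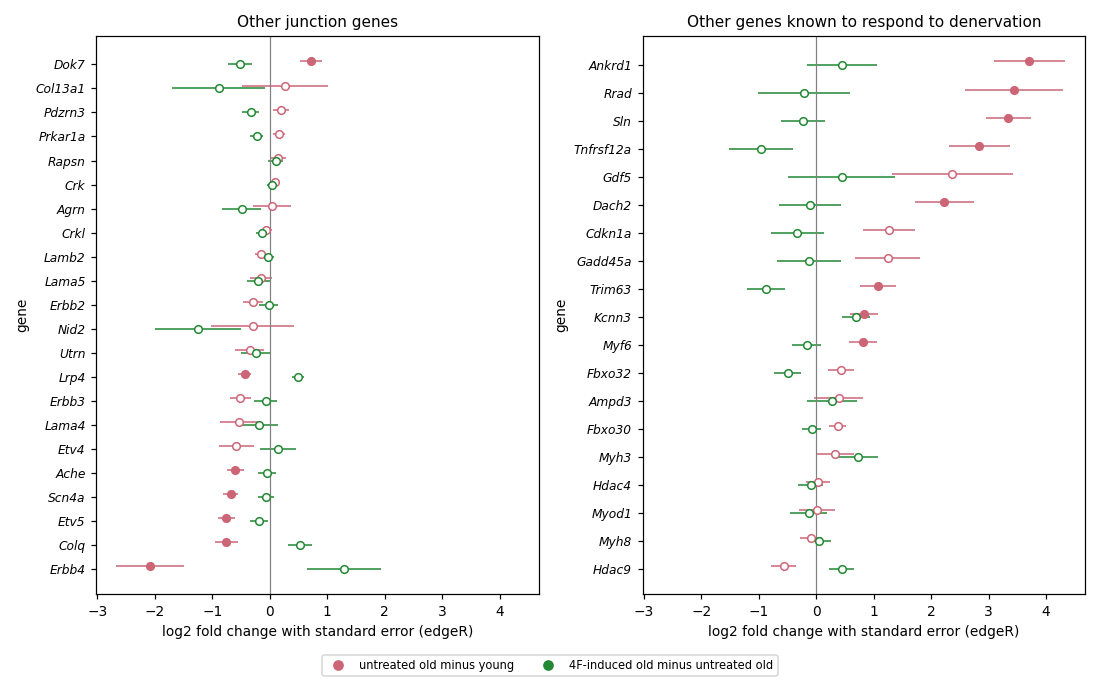
Log2 fold change with standard error in muscle for 22 other junction genes and for the other genes known to respond to denervation that are reported here, with age (red) and between the old groups (green), in which filled points passed at an edgeR adjusted p under 0.05. With age the filled points of the denervation list lie between 0.81 and 3.71, and no green point is filled.

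Chrna9, a nicotinic subunit best known from hair cells of the inner ear, was the only one of 5 tested non-muscle nicotinic subunits that passed with age. It rose from between 0.0266 and 0.162 CPM in young to between 1.01 and 3.11 CPM in untreated old muscle (log2 3.84 ± 0.56, edgeR adjusted p 0.00835). It was between 1.27 and 1.42 CPM in 4F-induced old muscle. Of 8 tested satellite cell markers 2 fell with age and 6 did not pass, where 16.1% of all genes passed. Pax7, the defining factor of the muscle stem cell, fell by 1.95 ± 0.22 and Chodl by 1.18 ± 0.18 (edgeR adjusted p 0.00433 and 0.00919). The log2 fold change was above 0 for 3 of the 8, with a median of -0.22 beside -0.015 over all genes. The 9 listed satellite cell markers summed to between 66.3 and 78.4 CPM in young muscle, between 41.3 and 58.9 CPM in untreated old and between 45.5 and 48.6 CPM in 4F-induced old muscle. From young to 4F-induced old, 1 of the 8 tested satellite cell markers rose (Mymx) and 3 fell (Chodl, Pax7 and Calcr). Over all genes 19.0% passed there and 9.74% were higher. The 3 fell by 1.13, 1.20 and 1.67 on the log2 scale (edgeR adjusted p 0.00978, 0.011 and 0.032). Mymx, which encodes the fusion protein myomixer, was between 0.0276 and 0.133 CPM in young and between 0.631 and 1.05 CPM in 4F-induced old muscle (log2 3.47 ± 0.58, edgeR adjusted p 0.0107). From young to untreated old its log2 fold change was 2.05 ± 0.64, which did not pass (edgeR adjusted p 0.0553). Of the defining genes of motor neurons, Chat and Slc18a3 were at 0 in all 10 muscle libraries. They belong to 9 listed neuron markers, of which 2 were tested in muscle. With age 0 of these 2 passed, and from young to 4F-induced old 1 did (Tubb3, higher).

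Cell markers other than those of nerve and muscle also moved with age in muscle. With age 5 of 10 fibroblast markers, 5 of 10 adipocyte markers, 6 of 8 tested kidney tubule markers and 1 of 7 tested hepatocyte markers (Cyp2e1) fell. Neutrophil markers rose for 3 of 6 tested, keratinocyte markers for 2 of 3 (Trp63 and Sfn) and endothelial markers for 1 of 10 (Pecam1). Of 12 macrophage markers 1 fell (Cd163). In the lists of T and NK cells, B cells and lung epithelium, 0 of 6, 0 of 6 and 0 of 3 tested markers passed. Over all genes 16.1% passed with age and 8.14% were higher. Fibroblast markers summed to between 2240 and 3700 CPM in young and between 733 and 1570 CPM in untreated old muscle. Slow fibre genes summed to 3710 CPM in untreated old 3 and 6310 CPM in 4F-induced old 3, against 1330 to 2710 CPM in the other 8 libraries. The part of these cells in the values above was not tested.

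Across the 10 muscle libraries, Pearson's r between pairs of receptor subunits on the log2 CPM scale ran from -0.14 for Chrnb1 with Chrne to 0.82 for Chrna1 with Chrnb1. It was 0.76 for Chrnd with Chrng and 0.76 for Myog with Runx1. Chrne had r between -0.67 with Runx1 and 0.29 with Ncam1. These are descriptions over libraries that share the 3 groups. Among 12003 other genes whose mean log2 CPM was 1 or more, those most like Chrnb1 were Foxp2 (r = 0.987), Uchl3 (0.977) and Scx (0.976). Those most like Chrna1 were Derl1 (0.938), Gm28653 and Dusp26, and most like Chrng were Rfx5 (0.899), Tulp3 and Aif1l. The nearest to Musk was Odc1 (0.969), followed by Samd10 and Psmd8. Iqcc (0.935), Ampd3 (0.928) and Armcx5 were nearest to Myog, and Slc10a3 (0.95), Tubb6 and Cpne2 to Runx1. For Ncam1 they were Ncmap (0.937), which is also 1 of the Schwann cell markers, Rfx2 and Lrrc74b. H2afv (0.946), Tmed10-ps and Gm37254 were nearest to Chrne, and Akap8 (0.857), Tent4b and Gm11225 to Chrnd. The highest of so many values over 10 libraries is high for any gene, so the likeness is given without a test.

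**Figure D4:**
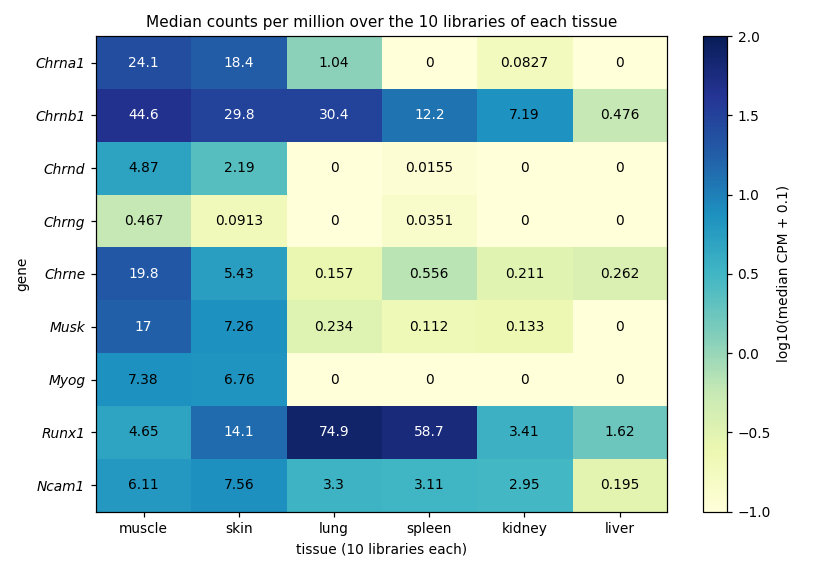
Median CPM of each gene over the 10 libraries of each tissue, scaled to the library total, coloured by log10(median CPM + 0.1). Chrnb1 has a median of 30.4 CPM in lung and Runx1 of 74.9 CPM in lung and 58.7 CPM in spleen, whereas Myog has a median of 0 in lung, spleen, kidney and liver.

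Outside muscle and skin, only Chrnb1, Runx1 and Ncam1 were found at more than 2 CPM as a median in any tissue. Between tissues the levels are CPM of the library total. Chrnb1 ranged from 28.7 to 69.9 CPM in muscle, from 24.9 to 53.3 CPM in lung, from 6.36 to 19.3 CPM in spleen, from 4.56 to 9.65 CPM in kidney and from 0.382 to 1.15 CPM in liver. It ranged from 4.72 to 48.2 CPM in skin, which overlapped all but liver. Muscle and lung overlapped, as did spleen and kidney, and liver lay below all of these. Runx1, which is known for its role in blood cells, had another order, from 67.7 to 93.1 CPM in lung and from 38.8 to 64.0 CPM in spleen down to between 2.32 and 15.1 CPM in muscle. Lung and spleen did not overlap. Ncam1 had medians of 7.56 CPM in skin, 6.11 CPM in muscle, 3.30 CPM in lung, 3.11 CPM in spleen, 2.95 CPM in kidney and 0.195 CPM in liver.

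Myog, Chrnd and Chrng were at or near 0 in lung, spleen, kidney and liver. Myog had 0 reads in all 10 libraries of kidney, liver and lung, which allows up to 0.131, 0.117 and 0.124 CPM at the 3 counts that a count of 0 allows in the smallest library of each, counting error only. It had 1 read in 1 of 10 spleen libraries. Chrnd and Chrng had at most 3 reads in any library of these 4 tissues. Musk and Chrne were between 0 and 0.664 CPM and between 0.0843 and 1.74 CPM in them, leaving aside 1 spleen library. The filter on low counts was passed by 8 of the 9 genes in skin, 5 in kidney, 5 in lung, 4 in liver and 4 in spleen.

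The skin libraries held muscle transcripts, and the library with the fewest held the least Chrna1, Chrnb1, Chrnd, Chrne, Musk and Myog. Chrng had 0 to 13 reads in skin and did not pass the filter there. Fast fibre genes summed to between 82100 and 161000 CPM in young skin, between 43200 and 90900 CPM in untreated old skin and to 4460, 86500 and 91800 CPM in 4F-induced old skin. In 4F-induced old library 1, the lowest, Chrna1 was at 0.339 CPM against 4.26 to 26.8 CPM in the other 9, Musk at 0.151 CPM against 2.82 to 14.9 CPM, and Chrnd had 0 reads. Untreated old library 3 had the next lowest fibre sum and the next lowest Chrna1 (4.26 CPM), Chrnb1 (11.9 CPM), Chrne (1.19 CPM) and Myog (1.71 CPM). That library also held hepatocyte transcripts, 12700 CPM over 10 genes against at most 457 CPM in the others. Ncam1 and Runx1 did not follow the fibre sum, and Runx1 was highest in the library with the fewest fibre transcripts, at 49.7 CPM, and next highest in young library 2, at 29.3 CPM.

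**Figure D5:**
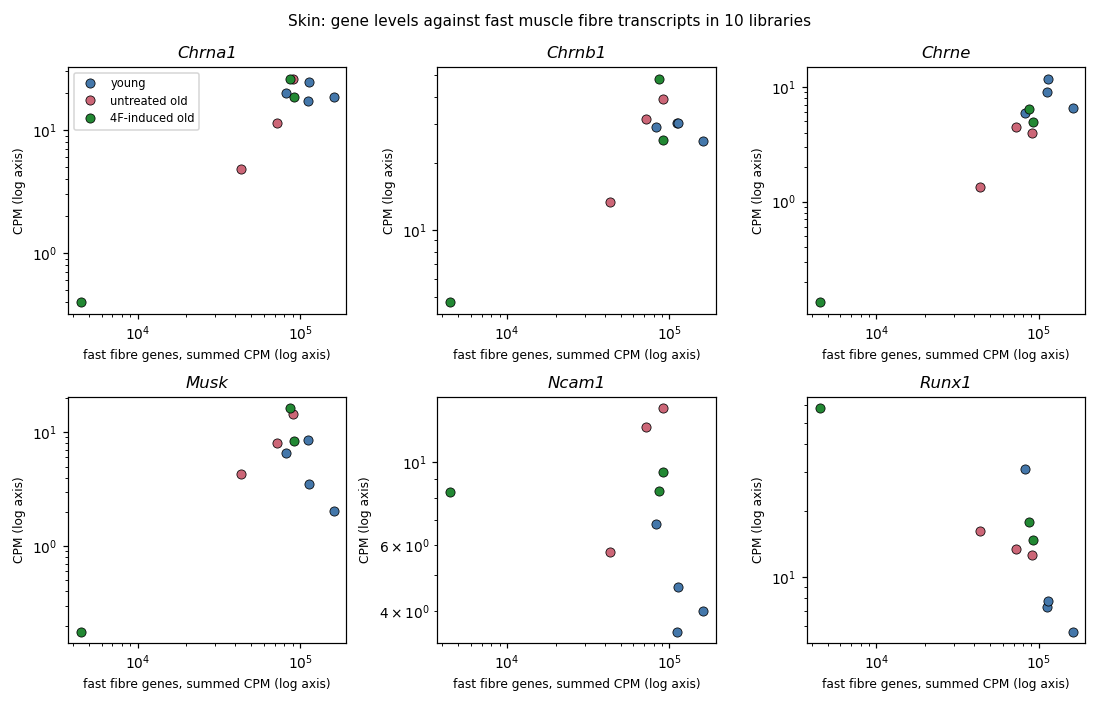
Level of 6 genes against the summed level of 13 fast fibre genes in the 10 skin libraries, both in CPM of the library total on log axes. The 4F-induced old library at 4460 CPM of fibre transcripts is the lowest for Chrna1, Chrnb1, Chrne and Musk and the highest for Runx1.

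None of the 8 genes tested in skin passed in either comparison, where 0% of 19188 genes passed in each with edgeR. At an unadjusted p under 0.05 there were 3064 genes with age and 1157 between the old groups, and DESeq2 called 1025 (5.49%) and 401 (1.39%), none of the 9 genes among them. Ncam1 was at 4.00, 6.46, 5.04 and 5.49 CPM in young, 11.3, 13.9 and 5.10 CPM in untreated old and 7.08, 7.66 and 9.35 CPM in 4F-induced old skin. Its log2 fold change with age was 0.87 ± 0.37 (edgeR adjusted p 0.304), opposite to that in muscle. The difference between the tissues, muscle minus skin, was -1.43 ± 0.40 and passed (edgeR adjusted p 0.0433), where 7.85% of 19780 genes passed. It was lost without any 1 of the 7 young and untreated old muscle libraries (edgeR adjusted p 0.0628 to 0.175). That fit treats the muscle and skin libraries as independent. With each run of 6 sample numbers as a replicate block, an alternative chosen after the data were seen, the difference was -1.38 ± 0.36 and did not pass (edgeR adjusted p 0.0633), where 2.92% of genes passed. Musk in skin was at 9.66 and 6.19 CPM in young males and 3.80 and 2.82 CPM in young females, and over all skin libraries the sexes overlapped. The log2 difference of female minus male in skin was -0.88 ± 0.89 (edgeR adjusted p 0.856, with 0.0156% of genes called), and without 4F-induced old 1 it was -1.23 ± 0.31 (adjusted p 0.481). DESeq2 gave -0.90 ± 0.80 (adjusted p 0.816) and called none of the 9 genes by sex in skin, with 1.40% of its genes called.

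Ncam1 fell with age in kidney and lung. In kidney it was at 2.93, 3.54, 5.77 and 5.09 CPM in young, 2.07, 1.94 and 2.92 CPM in untreated old and 2.78, 1.74 and 3.70 CPM in 4F-induced old libraries. It fell by 0.77 ± 0.18 on the log2 scale (edgeR adjusted p 0.0395), where 6.12% of genes passed, and was the 1 of 5 tested genes that passed. In lung it was at 6.58, 5.12, 5.27 and 3.65 CPM in young, 3.00, 2.99 and 2.34 CPM in untreated old and 2.54, 3.81 and 1.21 CPM in 4F-induced old libraries. It fell there by 0.99 ± 0.28 (edgeR adjusted p 0.0417), where 17.7% of genes passed, again 1 of 5 tested. The young and untreated old groups did not overlap in lung. In kidney they were apart by the gap from 2.92 to 2.93 CPM after TMM scaling, and in CPM of the library total they overlapped, with young 1 at 2.70 and untreated old 3 at 3.10 CPM. Each call was lost without any 1 of the 7 young and untreated old libraries (edgeR adjusted p 0.0562 to 0.163 in kidney and 0.064 to 0.11 in lung). Schwann cell markers in lung summed to between 1150 and 1320 CPM in young and between 784 and 1100 CPM in untreated old libraries, and their part was not tested.

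In liver Runx1 was higher with age, together with leukocyte transcripts. It was at 0.574, 0.558, 1.34 and 1.07 CPM in young, 5.00, 11.3 and 2.71 CPM in untreated old and 3.32, 0.936 and 2.00 CPM in 4F-induced old libraries. The young and untreated old groups did not overlap, while the 4F-induced group overlapped both. It rose by 2.82 ± 0.67 on the log2 scale (edgeR adjusted p 0.0462), the 1 of 4 tested genes that passed, where 7.91% of genes passed. The call held without untreated old 3 (3.55, adjusted p 0.0201) and was lost without any other 1 of the 7 young and untreated old libraries (edgeR adjusted p 0.0593 to 0.169). Between the old groups its log2 fold change was -1.60 ± 0.64 (edgeR adjusted p 0.274). Macrophage markers summed to 385, 355, 730 and 419 CPM in the young livers, 2370, 11700 and 1160 CPM in the untreated old ones and 1790, 501 and 945 CPM in the 4F-induced ones. Within each old group the order of the libraries was the same for Runx1 and for these markers. Other leukocyte markers did not keep this order in both old groups. In the untreated old livers, T and NK cell markers summed to 58.1, 291 and 24.7 CPM, B cell markers to 77.1, 179 and 115 CPM and neutrophil markers to 179, 127 and 196 CPM. In the 4F-induced ones they summed to 42.7, 7.35 and 53.8 CPM, to 57.7, 39.7 and 337 CPM and to 286, 11.4 and 10 CPM. The part of leukocytes in the Runx1 difference was not tested.

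In spleen Chrne was high in 1 library. Untreated old 1 held 1436 reads of Chrne, 44.6 CPM of the library total, against at most 35 reads and 1.52 CPM in the other 9 spleen libraries. The log2 fold change with age was 4.15 ± 1.80 (edgeR adjusted p 0.173) and without that library -1.23. The following neighbours were chosen after these values had been seen. Mink1, which lies beside Chrne, was at 214 CPM in untreated old 1 against 81.5 to 134 CPM in the others. Slc25a11, another neighbour, was at 119 CPM against 98.5 to 126 CPM, and Psmb6, a further one, at 129 CPM against 79.8 to 117 CPM. 4930544D05Rik, which lies on the opposite strand across Chrne without sharing exons, was at 2.39 CPM against at most 0.348 CPM. Macrophage markers were highest in that library, at 13500 CPM against 4610 to 8410 CPM, and their part was not tested. In lung, untreated old 1 was also the highest for Chrne, at 1.74 CPM against at most 0.271 CPM. That lung library held the most fast fibre transcripts of the lungs, 236 CPM against 11.8 to 68.9 CPM, and the most Musk, at 0.664 CPM. Spleen untreated old 1 held 15 CPM of fast fibre transcripts. The part of muscle transcripts in the Chrne values was not tested. The sample numbers of the spleen and the lung library lie in 1 of the runs of 6, and the labels do not say whether they come from 1 mouse. DESeq2 called Chrne with age in spleen (adjusted p 0.036, with 14.2% of genes called), and edgeR called none of the 4 tested genes, where 0.274% of genes passed.

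Between the old groups none of the tested genes passed in kidney, liver, lung or spleen with edgeR, where 0%, 0%, 0% and 0.00517% of genes passed. At an unadjusted p under 0.05 there were 1068, 3054, 1474 and 2455 genes. DESeq2 called 29, 276, 180 and 429 genes (0.152%, 1.88%, 0.642% and 2.27%), with none of the 9 among them. Chrnb1 in spleen was at 6.91, 11.3 and 12.2 CPM in the untreated old and 14.4, 17.3 and 19.1 CPM in the 4F-induced old libraries, which do not overlap (log2 0.74 ± 0.24, unadjusted p 0.0143, edgeR adjusted p 0.335). Of the differences of muscle minus kidney, liver, lung and spleen, none of the 9 passed with age, where 8.70%, 16.2%, 5.57% and 2.34% of genes passed. With the runs as a replicate block, Chrnb1 passed for muscle minus kidney (0.67 ± 0.15, edgeR adjusted p 0.0285, with 6.53% of genes called; 0.67 ± 0.27 and 0.135 without the block). Between the old groups none of the 9 passed in these or in muscle minus skin, where at most 0.00486% of genes passed.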

How the data were processed

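Bulk RNA from 60 libraries was analysed as the counts per gene that the authors deposited, after TruSeq stranded total RNA preparation per the labels' protocols. The submitters' processing notes name GRCm38 as the build. Aligner, counter and strand setting: not given in the sources used here. Of 52636 identifiers, 52403 were matched to a symbol in GENCODE M21, and 0.023% of counts fell on the rest, which stayed in the fits. For each tissue, edgeR 4.0.16 (R 4.3.3) fitted a quasi-likelihood model of group and sex to the 10 libraries, after its expression filter and TMM scaling. Differences between tissues were fitted as interactions over 20 libraries taken as independent, and with runs of 6 consecutive sample numbers as a block as an added alternative. P-values were adjusted over all genes tested by the Benjamini-Hochberg method, with a threshold of 0.05. DESeq2 1.42.0, other scalings, no filter, no sex term and leaving out libraries were alternatives. The fits were tested on simulated counts with 200 changed genes. The 9 genes and all lists were chosen with earlier results of these data known. In the lists, genes named are up to 6 per comparison with the smallest adjusted p, plus 12 given whatever their result, of which 1 is not reported here. No pair of replicates agreed within counting error (lowest chi-square per degree of freedom 9.48).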

Additional observations from a re-analysis of the deposited data

Results flagged for a closer look

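Within groups of 4 young libraries, 2 single libraries stood far from the other 3, among 33 groups examined. Chance alone gives about 1 in 20 groups, so this count is near the share that chance gives. Runx1 in skin was at 29.3 CPM in young library 2 and between 7.77 and 8.48 CPM in the other 3. That library also had the highest sum of keratinocyte markers among the young skins, 12700 CPM against 1840 to 5410 CPM, and the part of these cells was not tested. Chrnb1 in liver was at 1.17 CPM in young library 4 and between 0.419 and 0.537 CPM in the other 3. The same liver library held fast fibre transcripts at 66.3 CPM, against at most 3.37 CPM in the other 9, and their part was not tested. The change of Ncam1 with age differed between muscle and skin by -1.43 ± 0.40 on the log2 scale (edgeR adjusted p 0.0433), being -0.56 in muscle and 0.87 in skin. With the runs of 6 sample numbers as a replicate block it did not pass (-1.38 ± 0.36, edgeR adjusted p 0.0633).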

How the results depend on the processing

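The calls rest on 3 or 4 libraries a group, and most did not outlast the loss of 1. No number is shared by groups of 1 tissue, so no comparison within a tissue could be paired. Between tissues, the runs of 6 sample numbers as a replicate block, chosen after the data were seen, gave 0 of the 9 with age for muscle minus skin (Ncam1 -1.38) and 1 for muscle minus kidney (Chrnb1), and changed no other count among the 9. Beyond leaving out libraries, 463 values of single genes kept their direction and their side of the threshold, 74 no longer passed, 8 newly passed and 15 changed sign. The cause of each change below was not tested.

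With DESeq2, the genes called among the 9 included 2 with age in muscle, 1 between the old groups in muscle, 1 by sex in muscle and 1 with age in spleen. DESeq2 also called Runx1 with age in liver (log2 2.84, adjusted p 0.000163) and Ncam1 with age in lung (-0.98, adjusted p 0.00586), as edgeR did. Over all genes DESeq2 called 108 between the old groups and 341 by sex in muscle, 1025 and 401 (age, then old groups) in skin, 2185 and 29 in kidney, 4303 and 276 in liver, 2862 and 429 in spleen and 180 between the old groups in lung. Without the filter on low counts, edgeR called 1 of 9 and 56 of all genes between the old groups, and 1 of 9 and 373 of all genes by sex. From young to 4F-induced old, that setting called 5 of 9 and 3413 of all genes (11.5% of the genes tested). With the compared groups alone, muscle gave 0 of 9 and 1082 of all genes with age and 0 of all genes between the old groups.

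Without young 1 and 2 together, muscle gave 0 of 9 and 16 of all genes with age, 0 of 9 and 1181 of all genes from young to 4F-induced old, and 15 by sex. Without library 2 of both old groups, chosen after the data were seen, it gave 0 of 9 and 252 of all genes with age, 0 of all genes between the old groups, 279 from young to 4F-induced old and 19 by sex. Without the sex term, 0 of the 9 passed with age in kidney and in lung, and the all-gene counts with age were 101 in kidney, 2538 in liver and 1192 in spleen, with 2 between the old groups in spleen.

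Some log2 fold changes of genes that had not passed changed sign. Without young 1 and 2 together, Chrne was at 0.07 and Myog at -0.05 with age, and Chrne at 0.29 from young to 4F-induced old. Without library 2 of both old groups, Myog was at -0.05 and Runx1 at -0.01 with age, Musk at 0.06 between the old groups and Chrne at 0.16 from young to 4F-induced old. Scaling to the fast fibre genes moved the median of all genes with age from -0.015 to -0.13 in muscle and from 0.068 to 1.211 in skin, and between the old skins from 0.012 to 2.027. On that scale Chrnb1 and Myog in skin were at 0.46 and 0.22 with age, and Chrnb1, Musk, Myog and Ncam1 at 0.57, -0.17, 0.30 and 1.80 between the old groups. Without the sex term Musk was at -0.13 between the old skins and Chrnb1 at -0.06 with age in liver.

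Leaving out 1 library at a time gave 0 to 2 of the 9 with age and 1 to 3 from young to 4F-induced old in muscle, 0 with age in kidney and lung, 0 to 1 in liver, 0 for muscle minus skin and 0 to 2 for muscle minus kidney. Over all genes it gave 62 to 3968 with age, 0 to 2 between the old groups, 92 to 2301 from young to 4F-induced old and 12 to 51 by sex in muscle. In the other tissues the count with age was 0 to 10 for skin, 127 to 1096 for kidney, 2 to 3782 for liver, 1433 to 2453 for lung and 0 to 75 for spleen. Between the old groups it gave 0 to 3 in kidney, 0 to 54 in lung and 0 to 55 in spleen.

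The log2 fold changes that took both signs under this setting had these ranges. With age in muscle they were -0.41 to 0.06 for Chrnd, -1.12 to 0.21 for Chrng, -0.05 to 1.41 for Myog and -0.02 to 1.24 for Runx1. Between the old groups in muscle they were -0.03 to 0.42 for Chrne, -0.44 to 0.11 for Musk, -0.61 to 2.10 for Myog and -0.25 to 1.37 for Runx1. From young to 4F-induced old Chrne ranged from -0.27 to 0.16. With age in skin they were -0.72 to 0.06 for Chrnb1 and -0.84 to 0.52 for Myog, and Runx1, at 0.00 with all libraries, ranged from -0.62 to 0.58. Between the old skins they were -1.09 to 0.94 for Chrna1, -1.02 to 0.52 for Chrnb1, -0.03 to 1.5 for Chrnd, -0.84 to 0.91 for Chrne, -0.65 to 0.75 for Musk and -1.56 to 0.05 for Myog. In kidney Chrnb1 ranged from -0.21 to 0.11 between the old groups, and Chrne, at 0.00 with all libraries, from -0.29 to 0.27. In liver Chrnb1 ranged from -0.20 to 0.69 with age and from -0.69 to 0.13 between the old groups, and Chrne from -0.01 to 0.90 between the old groups. In lung Chrnb1 ranged from -0.20 to 0.41 with age and from -0.26 to 0.29 between the old groups, Chrna1 from -0.03 to 0.35 and Ncam1 from -0.53 to 0.07 between the old groups. With age in spleen they were -0.27 to 0.10 for Chrnb1, -1.23 to 5.24 for Chrne, -0.23 to 0.03 for Runx1 and -0.48 to 1.14 for Ncam1. Between the old spleens they were -4.61 to 1.87 for Chrne, -0.24 to 0.08 for Runx1 and -1.30 to 0.20 for Ncam1.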

Other observations

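Spleen library untreated old 3 held the most Ncam1 of the 10 spleens, 15.1 CPM against 2.22 to 5.21 CPM. It also held the most neutrophil transcripts, 12800 CPM summed over 12 markers against at most 2380 CPM. In lung, Chrnb1 was highest in untreated old 3, at 53.8 CPM. Klf4, a factor of the cassette, was between 30.6 and 62.9 CPM in young muscle, between 14.1 and 25.4 CPM in untreated old muscle and between 9.89 and 18.0 CPM in 4F-induced old muscle.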
